A study of Mus musculus with 27 samples.

Results

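The 10 genes described here belong to the transcriptional and post-transcriptional programme of pluripotent cells and of the epiblast. They are Pou5f1, Nanog, Sox2, Dppa4, Dppa5a, Utf1, Tdgf1, Lin28a, Lin28b and Dnmt3b. They were taken by name, and their array probes were found by matching the transcript listed for each probe to RefSeq gene symbols. All 10 were found, with 17 probes, among 37208 genes or transcripts of the array, of which 20145 carried a symbol. The question was when transcripts of these genes are lost after the FLK1+ stage of mouse embryonic stem cell (ESC) differentiation, in which populations they persist, and whether blocking AP-1 moves them.

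The cells came from A2lox ESCs in which a cassette for a Flag-tagged dominant-negative FOS peptide (dnFOS) was placed at the Hprt locus. Doxycycline (DOX) switches the cassette on, and the peptide captures JUN partners and so blocks AP-1 DNA binding. Every sample carried the cassette, so that cells without DOX are uninduced rather than wild type. ESCs were grown on mouse embryonic feeder cells, moved to gelatin and differentiated as embryoid bodies for 3.75 days. FLK1+ cells, labelled hemangioblasts (HB), were then enriched on magnetic columns and placed in blast culture.

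Of the 13 groups, 7 had no DOX. These were FLK1+ cells straight from the column, unsorted blast cultures harvested at 5 h (FLK1+ 5h) and at 24 h (d1 BC), and 4 populations sorted after 48 h. The sorted populations were smooth muscle (SM) cells, early hemogenic endothelium (HE1, KIT+TIE2+CD41-), late hemogenic endothelium (HE2, KIT+TIE2+CD41+) and hematopoietic progenitors (HP, KIT+TIE2-CD41+). The other 6 groups were the same populations given 1 µg/ml DOX from the start of blast culture, thus for 5 h, 24 h and 48 h; FLK1+ cells had no DOX counterpart. Each group had 2 arrays and untreated SM had 3, giving 27 arrays. The labels number the replicates without saying whether they came from separate cultures, so p-values measure the spread between these samples, which may be technical. The 5 h and 24 h cultures were not sorted, and the whole series rests on a line derived by picking clones in vitro.

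OCT4 (encoded by Pou5f1), SOX2 and NANOG are the transcription factors at the core of the pluripotency network, and OCT4 and SOX2 bind neighbouring DNA sites together. In the embryo the network is dismantled as epiblast cells pass through the primitive streak, Nanog and Sox2 retreat to restricted regions, and Pou5f1 lingers in early mesoderm before it is silenced outside the germ line. LIN28 proteins block maturation of the let-7 microRNAs and are found in many embryonic tissues after the network is gone, and the de novo methyltransferase DNMT3B is shared by epiblast and by several embryonic progenitors.

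RefSeq promoter windows (assembly GRCm38.p6), running from 250 bases before to 50 bases after a transcription start, were found for 8 of the 10 genes, in 10 windows because Pou5f1 and Nanog have several starts. The windows of 4 genes called lower in at least 1 population, and of Nanog, called in none, are shown 5′ to 3′ on the strand of the gene, so that promoters of genes with and without a call can be read side by side. Capitals mark matches to 5 motifs, searched on both strands. The octamer core recognised by POU factors was searched as TTTGCAT. The core of SOX sites, which are often paired with an octamer, was searched as ACAATG. For AP-1, the target of the peptide in these cells, the letters were TGANTCA. The remaining pair were general promoter elements, the TATA box with the letters TATAAA and, for factors of the SP family, the GC box with the letters GGGGCGG.
Pou5f1, chr17:35505782-35506081, plus strand: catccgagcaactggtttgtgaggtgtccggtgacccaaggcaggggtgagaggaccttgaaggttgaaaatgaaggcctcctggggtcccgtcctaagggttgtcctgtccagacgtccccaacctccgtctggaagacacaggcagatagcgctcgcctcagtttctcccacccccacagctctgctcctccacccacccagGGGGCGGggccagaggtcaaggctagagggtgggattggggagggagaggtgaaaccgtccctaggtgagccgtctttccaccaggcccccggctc
Sox2, chr3:34649745-34650044, plus strand: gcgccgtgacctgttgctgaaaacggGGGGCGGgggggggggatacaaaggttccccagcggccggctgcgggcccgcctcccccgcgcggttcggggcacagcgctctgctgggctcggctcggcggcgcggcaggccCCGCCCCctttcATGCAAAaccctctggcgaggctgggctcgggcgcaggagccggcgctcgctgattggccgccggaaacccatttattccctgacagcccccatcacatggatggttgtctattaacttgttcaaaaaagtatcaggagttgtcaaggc
Nanog, chr6:122707239-122707538, plus strand: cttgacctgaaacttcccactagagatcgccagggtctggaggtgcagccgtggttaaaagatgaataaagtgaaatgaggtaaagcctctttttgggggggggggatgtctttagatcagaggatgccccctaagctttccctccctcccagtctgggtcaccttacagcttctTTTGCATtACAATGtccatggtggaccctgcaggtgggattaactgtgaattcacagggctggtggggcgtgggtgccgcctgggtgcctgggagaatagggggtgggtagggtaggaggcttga
Tdgf1, chr9:110946109-110946408, minus strand: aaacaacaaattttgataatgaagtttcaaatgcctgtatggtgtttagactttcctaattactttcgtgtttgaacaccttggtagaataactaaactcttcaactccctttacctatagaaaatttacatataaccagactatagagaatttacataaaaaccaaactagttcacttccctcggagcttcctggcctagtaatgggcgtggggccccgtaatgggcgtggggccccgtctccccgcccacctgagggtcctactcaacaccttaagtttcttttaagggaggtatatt
Lin28a, chr4:134018767-134019066, minus strand: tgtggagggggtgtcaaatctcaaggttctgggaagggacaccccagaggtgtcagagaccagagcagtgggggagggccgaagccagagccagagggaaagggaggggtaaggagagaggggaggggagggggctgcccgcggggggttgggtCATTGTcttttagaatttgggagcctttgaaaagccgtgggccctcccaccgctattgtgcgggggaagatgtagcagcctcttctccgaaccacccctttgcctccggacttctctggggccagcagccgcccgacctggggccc

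The Nanog window held an octamer core at -75 directly before a SOX core at -67, counted in bases from the start. The Sox2 window held an octamer core on the opposite strand at -99 and 2 GC boxes, the Pou5f1 window a GC box at -46, and the Lin28a window a SOX core on the opposite strand at -96. The Tdgf1 window matched none of the 5 motifs. Across 32851 mouse promoter windows of the same length, 4.63% held the octamer core, 12.6% the SOX core, 7.81% the AP-1 site, 13.6% the TATA box and 23.2% the GC box. None of the 10 windows of these genes held an AP-1 or TATA match, which says only that these letters are not in these windows. The Sox2 window was GC-rich (66.3% G or C) and the Tdgf1 window was not (41.7%), against a median of 52.7% over all promoters.

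Levels are log2 values relative to the 75th percentile of the probes of each array, so that 0 is a fairly bright probe and a difference of 1 is 2-fold. A gene was called changed between populations at a Benjamini-Hochberg adjusted p under 0.05 in a limma fit across all genes, with at least a 2-fold difference. The signal at the 75th percentile ran from 78.8 to 732 over the arrays, and 46.8% to 89.6% of probes were well above background. The 4 dimmest arrays were HE2 replicate 1, both HE1 replicates and HE1 DOX replicate 1. FLK1+ cells were never on a slide with HE1, HE2 or HP cells. Only SM cells, with or without DOX, shared slides both with FLK1+ cells and blast cultures and with these sorted populations. A fit with slide as a fixed block therefore links these groups through SM arrays alone. Sorting markers fitted the labels of the hemogenic and hematopoietic populations: Cdh5, the VE-cadherin of endothelium, differed from FLK1+ cells by 7.76 ± 1.53 in HE1 (log2, SE, n = 2 against 2, adjusted p = 0.00286 by limma), and all 6 HP markers were called higher in HP cells. Of 5 smooth muscle markers, 2 were called higher in SM than in FLK1+ cells, led by Acta2 (smooth muscle actin) at 8.32 ± 0.61. Hprt, whose locus holds the cassette, had a higher mean with DOX in all 6 populations, by 1.45 to 3.63 on the log2 scale, although only the difference in SM cells was called.

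The SM arrays did not form one group. SM replicate 2 and SM DOX replicate 2, both on slide 3, had higher levels of endothelial transcripts than the other 3 SM arrays: Cdh5 was at 4.16 and 4.53 on them against -1.33, -0.61 and -1.58, and Sox17, an endothelial transcription factor, was at 2.78 and 2.80 against -1.39, -2.51 and -1.92. Of 6 markers of hemogenic endothelium, 5 were higher on both of these arrays than on every other SM array, while Acta2 and Tagln, the contractile genes of smooth muscle, were high on all 5, although 3 of 5 smooth muscle markers and 3 of 5 FLK1+ cell markers were also higher on both of these arrays than on every other SM array. The reverse held for Cdh1, the epithelial E-cadherin, at -0.75 and -1.36 on these arrays against 2.81, 3.14 and 1.80. Among the pluripotency genes, 6 of 10 were lower and 2 of 10 higher on both of them than on every other SM array, while 13.2% of all genes were lower and 46.1% higher. The 6 were Pou5f1, Nanog, Sox2, Dppa4, Dppa5a and Utf1, and the 2 were Lin28a and Lin28b. SM differences from FLK1+ cells are given with and without these 2 arrays, a choice made after the values had been seen. For the 4 of them not described with a value in SM cells further on, the difference was 0.31 with all SM arrays and 0.69 without those of slide 3 for Nanog, 0.33 and 0.72 for Dppa4, 0.78 and 1.32 for Utf1, and 0.30 and -0.02 for Lin28b, and none was called either way.

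**Figure D1:**
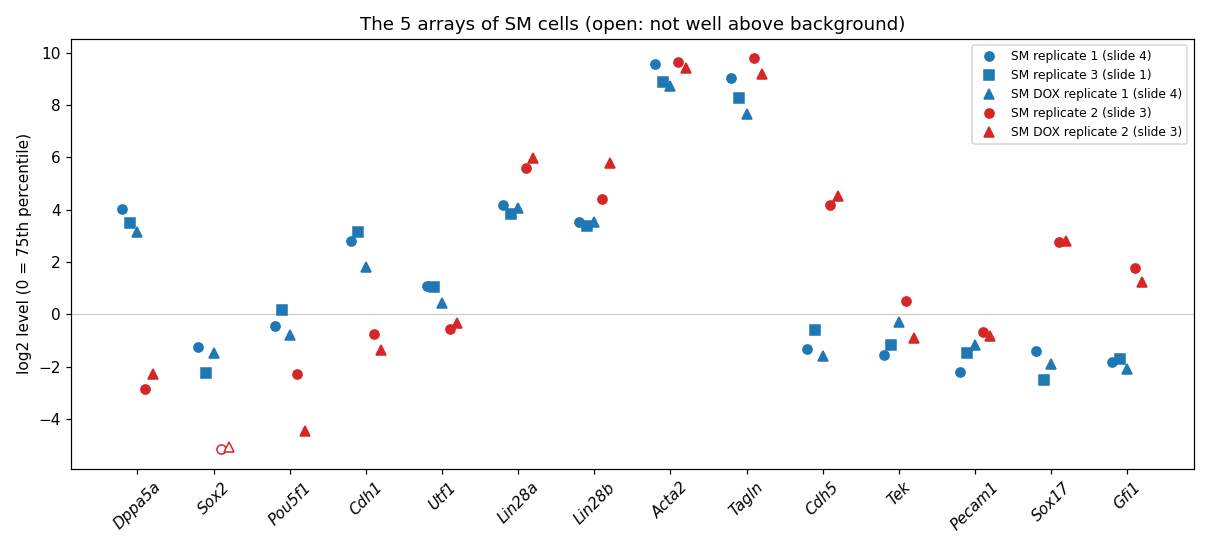
Levels (log2, 0 is the 75th percentile of the array) on the 5 arrays of SM cells; each point is an array, red for slide 3 and blue for slides 1 and 4, and triangles are DOX-treated. Dppa5a sat at -2.86 and -2.30 on the slide 3 arrays and between 3.15 and 4.04 on the others, Cdh5 the other way round, and Acta2 was high on all 5.

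The 10 genes were not called at the same stages, although timing was not tested between genes. None was called different from FLK1+ cells after 5 h. Pou5f1 and Tdgf1 were called lower at 24 h, Dppa5a in HE1, HE2 and HP cells, and Sox2 and Lin28a in HE2 and HP cells. Dnmt3b was called lower in SM and HE1 cells but not in HE2 or HP cells. The calls do not follow size: at 24 h Dppa5a differed by -3.56 and Tdgf1 by -2.65. Lin28a and Sox2 narrowly missed the threshold in HE1 (adjusted p = 0.0601 and 0.0715 by limma). All sorted populations were taken at 48 h, so calls among them give no order in time. Lin28b, Nanog, Dppa4 and Utf1 were called in no comparison. In counts, 0, 2, 3, 3, 4 and 5 of the 10 were called lower than in FLK1+ cells at 5 h, at 24 h, and in sorted SM, HE1, HE2 and HP cells. The share of all genes tested that was called lower in the same comparisons was 0.269%, 1.83%, 2.5%, 4.55%, 5.9% and 5.09%. All 10 were tested each time, because all were well above background in FLK1+ cells, and none was called higher. The median log2 difference over the 10 was -0.73, -0.39, -0.54, -1.84, -1.33 and -1.59 in that order, and over all genes tested it was -0.20, -0.06, 0.04, 0.12, 0.16 and 0.20. RNA was taken from bulk cells, in which fewer cells of a type and less RNA per cell cannot be told apart.

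**Figure D2:**
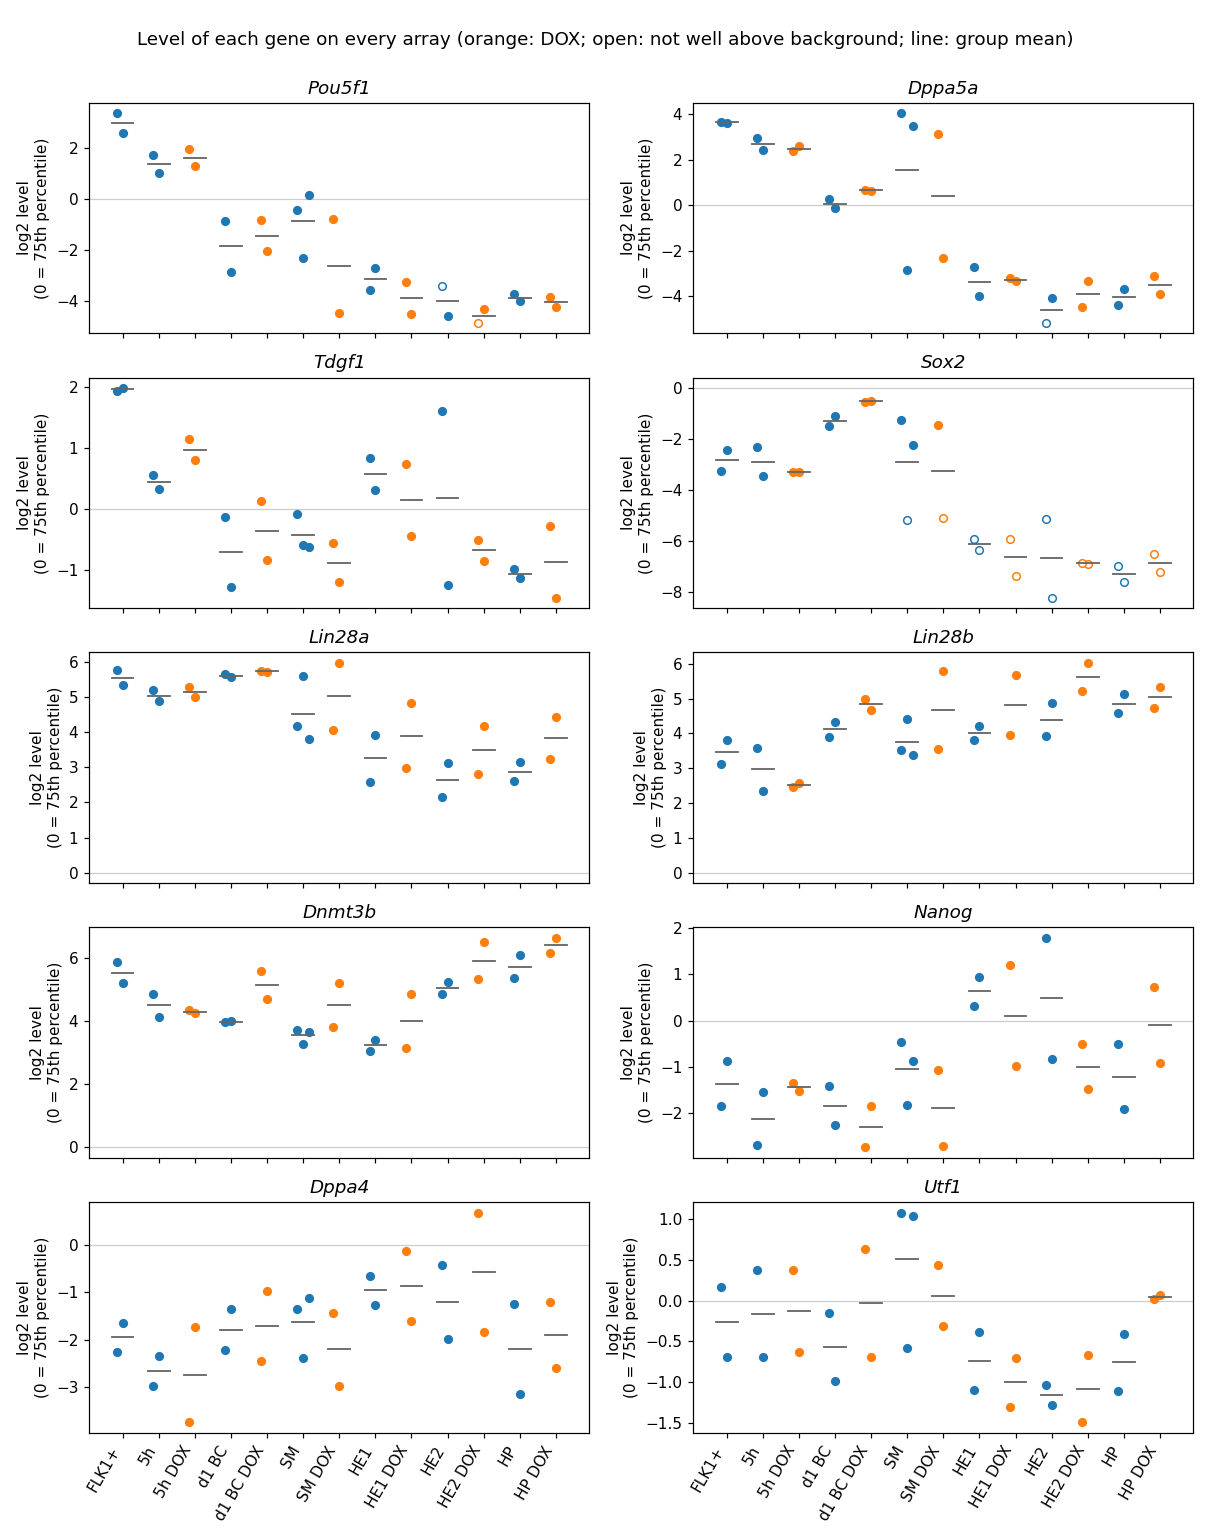
Level of each of the 10 genes on every array (y axis, log2, 0 is the 75th percentile of the array) by population (x axis); blue points are untreated and orange DOX-treated arrays, open points are not well above background, and short lines are group means. Pou5f1 is highest on the FLK1+ arrays, Sox2 drops to open points in all HE1, HE2 and HP arrays, and Lin28b stays between 2.36 and 6.03.

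Pou5f1, the gene of OCT4, was the only one of the 3 core factors called lower at 24 h. It stood at 3.35 and 2.57 on the FLK1+ arrays, at 1.72 and 1.01 after 5 h and at -0.86 and -2.83 after 24 h. The FLK1+ arrays were the highest of all, those at 5 h lay below them and above every later array, and the groups did not overlap at any of these steps. The difference from FLK1+ cells was -1.59 ± 0.99 at 5 h (log2, SE, adjusted p = 0.476) and -4.81 ± 0.99 at 24 h (28-fold, adjusted p = 0.00649, n = 2 against 2, limma). In the sorted cells Pou5f1 was at -3.56 and -2.72 in HE1, -3.38 and -4.57 in HE2, and -3.73 and -4.00 in HP. These values lay close to the detection limit: HE2 replicate 1 was not well above background. The falls from FLK1+ cells were 68.6-fold in HE1 (adjusted p = 0.000558), 122-fold in HE2 (9.9e-05) and 113-fold in HP cells (0.000103), and each kept its call in 27 of 27 fits that left out 1 array. Of the HE2 arrays 1 of 2 measured Pou5f1; with the other set to the level of the dimmest probe detected on it, the HE2 fold was 106. With slide as a fixed block, linked through SM arrays, the differences were smaller, -4.32, -5.15 and -5.04 on the log2 scale, and were still called.

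In SM cells the Pou5f1 levels were -0.43, -2.29 and 0.17 in replicates 1, 2 and 3, each above every HE1, HE2 and HP array, a mean of -0.85 against -1.85 in d1 BC, and the d1 BC and SM arrays overlapped. Relative to FLK1+ cells, Pou5f1 was 14-fold lower in SM cells (adjusted p = 0.0118). Without the 2 SM arrays of slide 3 the log2 difference was -3.09 ± 0.69 (adjusted p = 0.00989), and without SM replicate 2 alone it was -3.09 with an adjusted p of 0.0528. The SM call was also lost with slide as a fixed block (-2.62, adjusted p = 0.0604) and when only the SM and FLK1+ arrays were fitted (0.0838). On slide 4, which held FLK1+, FLK1+ 5h, d1 BC and SM arrays side by side, Pou5f1 differed from FLK1+ cells by -1.95, -5.79 and -3.39 in the last 3.

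Sox2, the partner of OCT4, was highest, among the untreated populations, in d1 BC. In FLK1+ cells it was at -3.23 and -2.43, after 5 h at -2.30 and -3.46, and after 24 h at -1.48 and -1.10. Both d1 BC arrays thus lay above both FLK1+ arrays, but the difference of 1.54 was not called (adjusted p = 0.684). In HE1, HE2 and HP cells no array of Sox2, with or without DOX, was well above background, so only bounds can be given. Sox2 was at least 8.56-fold lower in HE1 than in d1 BC cells (adjusted p = 0.0277 by limma). Against FLK1+ cells it was at least 3.22-fold lower in HE2 (0.0395) and at least 7.00-fold lower in HP (0.015). The adjusted p-values compare levels as read, which were not well above background in these populations, and do not test the bounds. On HE2 replicate 1 the dimmest detected probe was at -2.96, between the levels of the 2 FLK1+ arrays. That array cannot show a fall, so the HE2 bound rests on replicate 2. The step from d1 BC to HE1 was the only comparison between successive populations in which any of the 10 genes was called, 1 of 10, while 3.17% of all genes were. Other genes were called at other steps under other settings, and Lin28a, at -2.35 for the step from d1 BC to HE1, was called with a replicate block (adjusted p = 0.0485), with slide as a fixed block (-3.12, 0.0238) or a random block (-2.66, 0.0103) and with scan day as a random block (-2.17, 0.0211). With slide as a fixed block, linked through SM arrays that were also split for Sox2, all 3 Sox2 calls were lost. The adjusted p by limma was 0.316 in HE1 against d1 BC, and 0.48 in HE2 and 0.316 in HP cells against FLK1+ cells. The step to HE1 kept its call in 13 of 17 processing settings and lost it also with normexp background correction (adjusted p = 0.43) and when only those groups were fitted (0.0598). The HE2 call was kept in 10 of 18 settings and the HP call in 14 of 18. In HE1 Sox2 was at least 2.95-fold lower than in FLK1+ cells, which missed the threshold (adjusted p = 0.0715) and was called under several settings, among them quantile normalization (0.0345), a replicate block (0.0396), array weights (0.0058) and no slide 3 SM arrays (0.00978).

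In SM cells Sox2 followed the split between slides. It was detected in SM replicates 1 and 3, at -1.27 and -2.24, and in SM DOX replicate 1, at -1.46, and was not well above background in SM replicate 2 and SM DOX replicate 2. The difference of SM from FLK1+ cells was -0.06 with all arrays (adjusted p = 0.979) and 1.07 without those of slide 3 (0.46).

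Nanog, the homeobox factor of the core, was well above background on all arrays and was called in no comparison of the fit described here. It was at -1.85 and -0.88 in FLK1+ cells and at -1.42 and -2.26 after 24 h. The highest levels of untreated cells were 0.32 and 0.94 in HE1 and 1.78 in HE2 replicate 1, against -0.83 in HE2 replicate 2. The mean differences from FLK1+ cells were 1.99 ± 0.91 in HE1 (adjusted p = 0.158) and 1.84 in HE2 (0.201), and neither was called. With slide as a random block Nanog was called higher in HE1 than in FLK1+ cells (2.47, adjusted p = 0.0412) and than in d1 BC (2.87, 0.0468), and with array weights higher in HE1 than in d1 BC (2.47, 0.0447). Without HE2 replicate 2 it was called higher in HE2 than in FLK1+ cells (3.15, 0.0382). The 4 dimmest arrays, which include both HE1 arrays and HE2 replicate 1, gave Nanog levels of 0.32 to 1.78, while the other 23 ran from -2.74 to 0.71 with a median of -1.42. Before scaling, the Nanog signal covered an 8.43-fold range over the 27 arrays. The range was 493-fold for Pou5f1 and 2953-fold for Dppa5a, but their lowest signals, both on HE2 replicate 1, were not well above background. Those 2 ranges are therefore not measured sizes. The part of array brightness in the Nanog levels was not tested further.

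Dppa5a encodes a small RNA-binding protein of undifferentiated ESCs and germ cells, and it covered the widest range of the 10. It was at 3.67 and 3.61 in FLK1+ cells, at 2.97 and 2.41 after 5 h and at 0.28 and -0.13 after 24 h. The arrays of these 3 groups did not overlap. In the blood-forming lineage, HE1 arrays were at -2.71 and -4.00, HE2 at -5.16 (not well above background) and -4.06, and HP at -4.35 and -3.65. Compared with FLK1+ cells, Dppa5a was 128-fold lower in HE1 (adjusted p = 0.00969), 303-fold in HE2 (0.00225) and 199-fold in HP cells (0.00374). The HE2 value rests on 1 of 2 arrays that measured Dppa5a and fell to 142-fold with the other set to the level of the dimmest probe detected on it. The difference at 24 h, -3.56 ± 1.64, was not called (adjusted p = 0.319). The same difference was called with array weights (adjusted p = 0.0163) and when only the d1 BC and FLK1+ arrays were fitted (0.0174). With slide as a fixed block, none of the 3 later differences was called. They became -2.72, -3.97 and -3.36 (adjusted p = 0.375, 0.205 and 0.348). That fit links FLK1+ cells to these populations through SM arrays, whose Dppa5a levels were split between slides. It cannot separate slide from that split.

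The wide standard error of Dppa5a came with its spread in SM cells. SM replicates 1 and 3 were at 4.04 and 3.50, as high as FLK1+ cells, and SM replicate 2 was at -2.86, as low as HE1 cells. SM DOX replicates 1 and 2 repeated the split at 3.15 and -2.30. With all arrays Dppa5a differed from FLK1+ cells by -2.08 in SM (adjusted p = 0.435). Without the slide 3 SM arrays, a choice made after these levels were seen, the SE shrank to 0.56. The arrays removed carried the spread, so the smaller SE and the higher SM mean follow from the choice. The difference from FLK1+ cells was then 0.13 in SM and -3.56 in d1 BC, and Dppa5a was higher in SM than in d1 BC by 3.70 ± 0.56. Under that setting the step from 5 h to 24 h was -2.61 and that from d1 BC to HE1 -3.43. Calls of Dppa5a under that setting are not independent of the choice. On slide 4, SM replicate 1 differed from the FLK1+ mean by 0.41 and d1 BC replicate 2 by -3.77. The feeder fibroblast list was read beside these values. Of its 6 genes, 3 were called higher in SM than in FLK1+ cells, and Thy1 was called lower (-2.49). Over all 22611 genes tested there, 1323 were called higher and 566 lower. The 3 were Col3a1, Col1a2 and Col1a1 (by 7.69, 5.42 and 4.31), which encode fibrillar collagens that smooth muscle also makes. The 4 members of that list that separated the SM arrays were lower on both slide 3 arrays, in the same direction as Dppa5a. Their part in the SM levels was not tested.

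Dppa4, a chromatin factor of pluripotent cells, and Utf1, which marks undifferentiated ESCs, gave no call. Dppa4 ran from -3.75 to 0.68 over the 27 arrays, with FLK1+ arrays at -2.26 and -1.65 in the middle of that range. Its differences from FLK1+ cells lay between -0.71 and 0.99 by the probe used. Utf1 ran from -1.50 to 1.08, with FLK1+ arrays at 0.17 and -0.70, and its differences from FLK1+ cells lay between -0.90 and 0.78. The unscaled signals covered 17-fold and 24.4-fold. Dppa4 had 3 probes, none of them called in any comparison, and the other probes gave differences from FLK1+ cells of up to -1.81 (at 5 h) and 1.76 (in HE1).

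**Figure D3:**
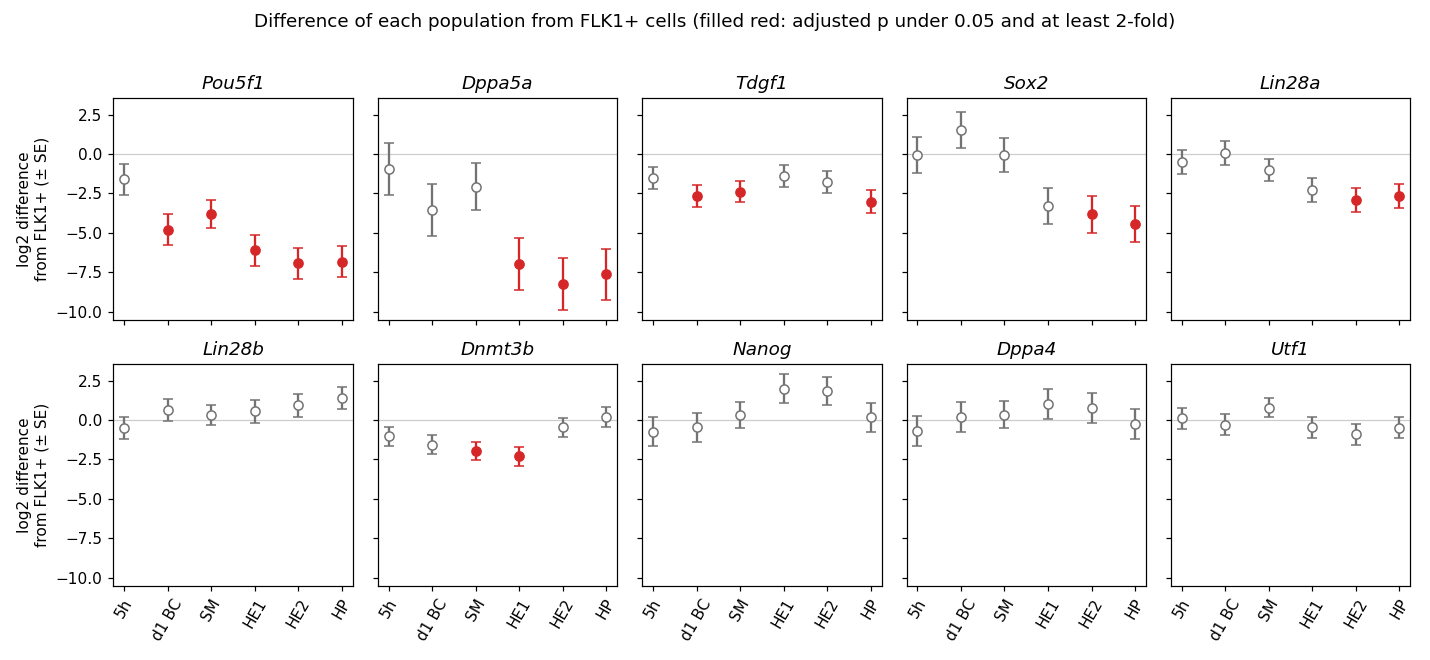
Log2 difference of each untreated population from FLK1+ cells (y axis, with SE) for each gene (panels, shared scale); red points are called at an adjusted p under 0.05 and at least 2-fold. Pou5f1 was called from d1 BC onwards, Dppa5a from HE1, Sox2 and Lin28a from HE2, and Dnmt3b in SM and HE1, while Lin28b, Nanog, Dppa4 and Utf1 have no red point; Sox2 in HE1, HE2 and HP cells was not well above background, so that those points show no measured size.

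Tdgf1 encodes CRIPTO, the membrane co-receptor through which NODAL signals in the epiblast and primitive streak, and its 3 probes disagreed. The brightest probe over all arrays (A_55_P1968028, probe A), which stood for the gene in the fit, was at 1.94 and 1.98 in FLK1+ cells, 0.56 and 0.34 at 5 h, and -0.12 and -1.27 at 24 h. It fell 6.30-fold by 24 h (adjusted p = 0.0404), was 5.22-fold lower in SM cells (0.0293) and 8.06-fold lower in HP cells (0.00846). Without the slide 3 SM arrays the SM difference was -2.30 and was no longer called (adjusted p = 0.0748), nor was it with only the SM and FLK1+ arrays fitted (0.0845). It was not called in HE1 or HE2 cells, where single arrays reached 0.83 and 1.60. Without HE2 replicate 1 it was called lower in HE2 (-3.19, adjusted p = 0.00769), as it was with normexp background correction (-1.93, 0.0275), and with median scaling it was called in HE1 (-2.41, 0.0269) and HE2 (-2.64, 0.0158). With the mean of all 3 probes it was called in HE1 and HE2 cells as well (adjusted p = 0.000152 and 2.45e-05). It stayed well above background on each of the 27 arrays, and the highest of its sorted-cell values came from the dim arrays. The call at 24 h was kept in 14 of 27 fits with 1 array left out and was the least stable of those reported, whereas 23 of 27 kept the calls in SM and in HP cells.

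Probes B (A_55_P2058540) and C (A_55_P2183147) of Tdgf1 fell to background. Probe C was at 5.43 and 5.22 in FLK1+ cells, 3.39 and 2.71 at 5 h, -3.37 and -6.47 at 24 h, the last not well above background. Probe B went from 3.76 and 3.60 through 1.42 and 1.28 to -4.32 and -6.59. Neither probe was well above background on any untreated HE1, HE2 or HP array, and the probes were detected on 14 (B) and 13 (C) of 27 arrays. When every probe was tested on its own, an analysis added after the data had been seen, probe C differed between FLK1+ cells and d1 BC by -10.25 ± 1.37 (adjusted p = 0.000188) and probe B by -9.14 ± 1.43 (0.000773). In d1 BC 1 of 2 arrays measured each probe; with the other at the level of its dimmest detected probe, the differences were -9.32 and -8.15. In HP cells they were at least 1992-fold and at least 638-fold lower than in FLK1+ cells (adjusted p = 1.55e-05 and 4.54e-05). For these probes the step from 5 h to 24 h was itself called, at -7.97 (adjusted p = 0.00626) and -6.80 (0.0246), or -7.05 and -5.82 with the undetected array set in the same way. Detection of Tdgf1 in untreated HE1, HE2 and HP cells thus rested on probe A alone.

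In SM cells probes B and C were intermediate: -2.31, -4.51 and -3.31 for B and -0.91, -4.05 and -0.17 for C in replicates 1, 2 and 3. The second replicate, on slide 3, was the lowest for both. Against FLK1+ cells probes B and C were lower in SM, by -7.06 (adjusted p = 0.00209) and -7.03 (0.00146), and without the slide 3 SM arrays by -6.49 (0.00407) and -5.86 (0.00189).

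**Figure D4:**
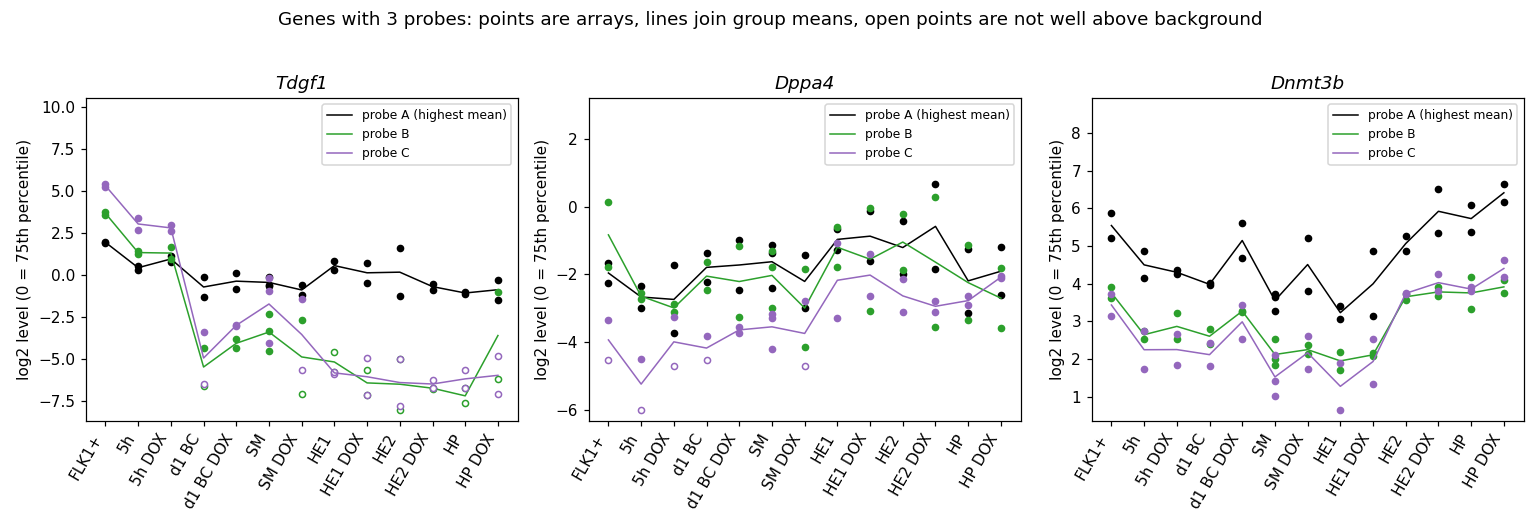
Levels (y axis, log2, 0 is the 75th percentile of the array) of the 3 probes of Tdgf1, Dppa4 and Dnmt3b by population (x axis); points are arrays, lines join group means and open points are not well above background. Tdgf1 probes B and C lie below -3 on the untreated d1 BC arrays while probe A stays between -1.45 and 1.98, and the 3 Dnmt3b probes trace the same dip in SM and HE1 cells.

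Lin28a and Lin28b encode the RNA-binding proteins that keep let-7 precursors from maturing, and only Lin28a was called. It was at 5.78 and 5.34 in FLK1+ cells, 5.20 and 4.88 at 5 h, and 5.65 and 5.57 in d1 BC. It was at 2.60 and 3.93 in HE1, 2.16 and 3.13 in HE2, and 2.62 and 3.14 in HP cells, all below every earlier array. The fall from FLK1+ cells was 7.54-fold in HE2 (adjusted p = 0.0184) and 6.41-fold in HP cells (0.0285), and in HE1 it was -2.30 ± 0.77 and just missed the threshold (adjusted p = 0.0601). The HE1 difference was called under other settings, among them quantile normalization (-1.77, adjusted p = 0.0268) and slide as a random block (-2.71, 0.00297). In SM cells Lin28a was at 4.19, 5.59 and 3.82, and with slide as a fixed block it was called lower than in FLK1+ cells, at -1.58 (adjusted p = 0.0229). Its SM difference was -1.02 with all arrays (0.412) and -1.55 without those of slide 3 (0.189).

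Lin28b was called in no comparison. It was at 3.12 and 3.82 in FLK1+ cells, 3.91 and 4.32 in d1 BC, 3.92 and 4.86 in HE2, and 4.58 and 5.13 in HP cells. HP cells lay above FLK1+ cells on both arrays, by 1.39 ± 0.71, which was not called (adjusted p = 0.262). After quantile normalization the same difference was 1.46 (adjusted p = 0.0498), and in the authors' processed values it was 1.59 (0.0255). Over the 13 group means Pou5f1 and Lin28b ran opposite ways (r = -0.851), which describes the shared arrays and has no test.

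Of 10 other genes of the let-7 axis, none was called at 5 h, in SM or in HE1 cells. Hmga2, an architectural chromatin protein and classic let-7 target, differed by -1.73 at 24 h (log2, adjusted p = 0.0373), and Arid3a, a DNA-binding protein of lymphoid and blood cells, was higher in HE2 by 2.06 (0.0119) and in HP cells by 2.57 (0.00196). Trim71, a let-7 target of pluripotent cells, and Igf2bp1, an oncofetal RNA-binding protein, gave 0.35 and -1.18 in HP cells and were not called. The list's median difference lay between -0.29 and 0.21 in the 6 populations.

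Dnmt3b was called lower than in FLK1+ cells in SM and HE1 cells. It was at 5.87 and 5.22 in FLK1+ cells, 4.86 and 4.15 at 5 h, 3.96 and 4.01 at 24 h, and 3.07 and 3.40 in HE1 cells, then at 4.88 and 5.26 in HE2 and 5.36 and 6.10 in HP cells. The HE2 and HP arrays overlapped in range with FLK1+ cells, and the HE1 arrays lay below all of them. The difference from FLK1+ cells was -1.99 ± 0.56 in SM (3.97-fold, adjusted p = 0.0337) and -2.31 ± 0.62 in HE1 (4.96-fold, 0.0204), and -1.56 in d1 BC (0.207). The d1 BC difference was called with slide (-1.69, adjusted p = 0.0393) or scan day (-1.77, 0.0314) as a random block, with array weights (0.0308) and in the authors' values (-1.37, 0.0412). Both other probes were also called in SM (-1.64 and -1.91) and in HE1 (-1.81 and -2.16), and both lost the SM call without the slide 3 SM arrays (-1.50, adjusted p = 0.063, and -1.66, 0.118). The difference between HE2 and HE1, 1.83 ± 0.62, was not called (adjusted p = 0.171). It was called for 1 of the other probes (2.47 ± 0.61, adjusted p = 0.0449), after quantile normalization (1.77, 0.0111) and in the authors' values (1.87, 0.00661). The difference of 1.83 was also called with slide as a fixed (adjusted p = 0.0466) or random block (0.0274), and with scan day as a random block (0.0317). SM arrays were at 3.74, 3.28 and 3.65; without the slide 3 arrays the SM difference was -1.85 and was no longer called (adjusted p = 0.0702). The call was also lost with a replicate block (-2.03, 0.0611), with only the SM and FLK1+ arrays fitted (0.146) and with no filter on dim probes (0.0534).

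Of 6 other genes of DNA methylation measured (7 were listed), none was called lower in any population. Tet2, which oxidises methylated cytosine and is prominent in blood cells, was called higher in HE1 (2.05, adjusted p = 0.00759) and in HP cells (2.23, 0.00286).

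Successive populations were also compared directly. In the fit described here they gave no call among the 10 apart from the step from d1 BC to HE1. Other settings gave further calls, among them Dnmt3b in HE2 against HE1 with slide as a fixed or random block. The share of the array called was 1.42% between FLK1+ 5h and d1 BC, 0.256% between d1 BC and SM, 2.32% between HE1 and HE2, and 0.00394% between HE2 and HP cells, counted over the genes tested and in either direction. Of the 10 genes, 0 were called in each of these, with limma. At an unadjusted p under 0.05 there were 1, 0, 1 and 0, while 10.6%, 5.9%, 9.41% and 5.96% of all genes tested were. At 5 h, 6 of the 10 were lower on both 5 h arrays than on both FLK1+ arrays, while 33.9% of all genes were.

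Ordered by mean level, FLK1+ cells came first of the 13 groups for Pou5f1, Dppa5a and Tdgf1. For each of these the FLK1+ arrays did not overlap with the group in second place, a 5 h culture. For Dppa5a the first place held for group means only, as SM replicate 1, at 4.04, lay above both FLK1+ arrays. For Pou5f1, FLK1+ cells were followed by the DOX-treated and untreated 5 h cultures, which overlapped, and then by SM cells, which did not overlap with the 5 h cultures. Neighbours from SM to HE1 overlapped in turn. For Sox2 the DOX-treated and untreated d1 BC cultures came first and second without overlap, followed by FLK1+ cells, and the HE1, HE2 and HP groups, not well above background on any array, have no order. For Lin28a the d1 BC cultures and FLK1+ cells led and HE2 cells came last. Dnmt3b and Lin28b were highest in HE2 or HP cells with DOX, and all neighbouring groups overlapped for Lin28b. For Nanog, Dppa4 and Utf1 every pair of neighbours in the order overlapped.

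DOX moved none of the 10 genes past the threshold in any population. Between 8 and 10 of them were tested in each of the 6 comparisons, and none was called (adjusted p from 0.568 to 1, limma; 0 of 10 also at an unadjusted p under 0.05 in each). Over all genes the called share was 0% in FLK1+ 5h, d1 BC, HE1 and HE2, 0.0084% in SM and 0.0318% in HP cells, so few calls were made anywhere. Lin28a had a higher mean with DOX in 6 of 6 populations, by 0.10 to 0.96, and Dnmt3b and Lin28b in 5 of 6, by up to 1.16 and 1.24. Of the 20090 genes tested in all 6 comparisons, 8.88% had a higher mean with DOX in 6 and 33.7% in 5 or 6. Lin28b has another probe, which gave -0.16 in HE2 cells, where the probe used gave 1.24, and the other Dnmt3b probes gave 0.67 and 0.87 in d1 BC. Between DOX and untreated arrays of the same slide, 11 pairs in all, the probes used for Dnmt3b and Lin28b were higher with DOX in 11 of 11 and that of Lin28a in 10 of 11. The other Lin28b probe was higher in 7 of 11, and the other Dnmt3b probes in 7 and in 11. The remaining genes, by the probes used, were higher with DOX in 5 to 8 of 11 pairs. Of 15924 genes well above background on every array, 1.87% were higher in every pair and 8.35% in at least 10. For Dnmt3b, both DOX arrays lay above all untreated arrays in 4 populations. In d1 BC, for example, Dnmt3b was at 5.60 and 4.69 with DOX against 3.96 and 4.01 without, a difference of 1.16 ± 0.62.

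Every DOX array was higher than every untreated array for 2, 5, 1, 0, 2 and 3 of the 10 genes at 5 h, at 24 h, and in sorted SM, HE1, HE2 and HP cells, and the share of all genes was 19.4%, 18.4%, 4.38%, 9.01%, 18.8% and 28.1%. Every DOX array was lower for 0 of the 10 in each population, against 15.2%, 9.62%, 6.06%, 8.17%, 15.5% and 11.8% of all genes in the same order. By mean, Pou5f1, Nanog and Sox2 were each higher with DOX in only 2 of 6 populations. The largest fall was that of Pou5f1 in SM cells, at -0.78 and -4.46 with DOX against -0.43, -2.29 and 0.17. This difference of -1.77 ± 0.90 shrank to -0.65 without the slide 3 arrays. Nanog in HE2 cells differed by -1.47. A test of whether the DOX effect differed between populations passed for 0 of 28287 genes, with 539 at an unadjusted p under 0.05, and gave an adjusted p of 1.00 for each of the 10. With DOX as without it, Pou5f1 was lower at later stages, at 1.93 and 1.30 at 5 h, -0.82 and -2.05 at 24 h and -3.83 and -4.21 in HP cells.

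Lists of related genes, chosen with earlier results of these data known, place these timings. Of primitive streak genes, 4 of 10 were called lower at 5 h and 9 of 10 from 24 h onwards, where Mesp1, a master factor of early mesoderm, differed by -9.63 ± 1.16 (log2, adjusted p = 7.43e-05), Gsc, of the organiser, by -8.58, T (Brachyury) by -6.40 and Lhx1 by -5.29. Mesp1 and Gsc were each measured on 1 of 2 d1 BC arrays, and with the other at the level of its dimmest detected probe they differed by -9.59 and -7.88. In HP cells Mesp1 was not well above background and at least 1617-fold lower. Of formative epiblast genes, 0 of 14 were called lower at 5 h, 5 of 14 at 24 h, 5 of 13 in SM, 9 of 13 in HE1, 10 of 13 in HE2 and 11 of 13 in HP cells. Lefty2, an inhibitor of NODAL, differed by -5.10 at 24 h. Otx2, a head and epiblast homeobox gene, and Fgf8 differed by -8.11 and -7.40 in HP cells. Pou3f1, a POU factor of the epiblast and neural lineage, was called higher at 5 h (2.42), at 24 h (2.14) and in SM cells (2.41).

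Genes of naive pluripotency gave calls in both directions. Of 14 or 15 tested, 0 were called lower at 5 h, 2 at 24 h, 3 in SM cells and 7 in each of HE1, HE2 and HP cells. Zscan10, a zinc finger factor of ESCs, differed by -7.00 in HP cells and Tbx3, a T-box factor shared with several mesodermal tissues, by -6.98. Fgf4 was at least 44.4-fold lower in HP cells, and Prdm14, a regulator of germ cell and naive states, was at least 14-fold lower by 24 h. Others were called higher: Klf2, a Krüppel-like factor that is also a flow-responsive factor of endothelium, was higher in HE1 by 6.29 ± 1.23 (adjusted p = 0.00265), Nr5a2 by 4.33 and Klf4 by 1.81, and Klf5 was higher at 5 h by 1.94. Of the germ cell genes, 0 were called at 5 h, in d1 BC or in SM cells; later only Kit, a sorting marker of these populations, was higher, and Tfap2c lower. Median differences from FLK1+ cells in HP cells were -9.14 for the streak list, -4.81 for the formative list and -2.47 for the naive list, against 0.20 over all genes tested. Of these lists 6 of 10, 4 of 13 and 5 of 14 genes tested had an array not well above background, and with such arrays at the level of their dimmest detected probe the medians were -8.25, -4.81 and -2.39.

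**Figure D5:**
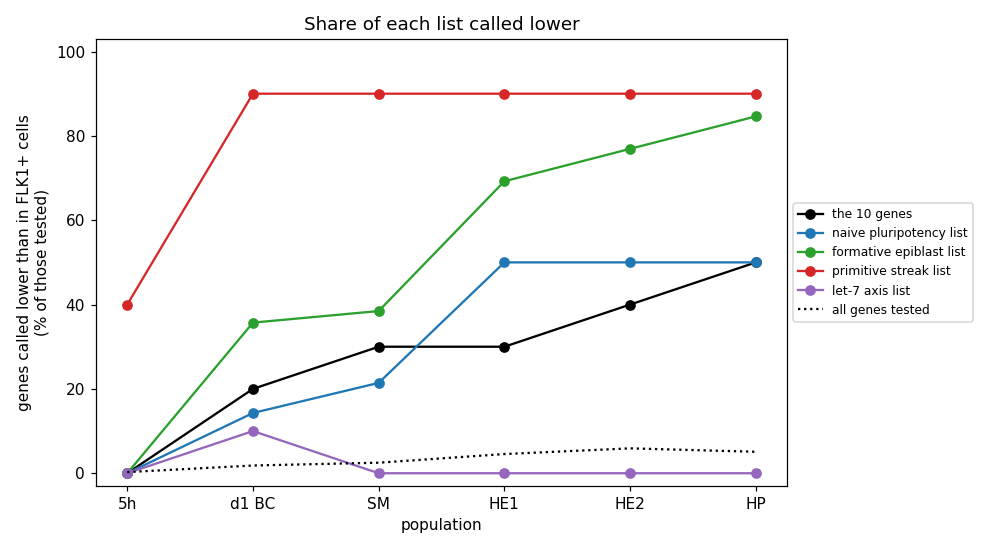
Share of each list called lower than in FLK1+ cells (y axis, % of the genes tested) in 6 untreated populations (x axis); the black line is the 10 genes and the dotted line all genes tested. The streak list reached 9 of 10 at 24 h, the 10 genes rose to 5 of 10 in HP cells, and the let-7 axis list stayed at or below 1 of 10.

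The genes most alike in profile were sought for each of the 10 as the highest correlation over the 13 group means, among 12756 genes well above background in FLK1+ cells. These values describe 13 groups that share arrays and scaling, and carry no test. Sox2 was not well above background in the HE1, HE2 and HP groups, with or without DOX. Its correlations therefore rest in part on unmeasured levels. Pou5f1 ran most like Pou5f1-rs4 (r = 0.989), a related sequence whose probe may bind the same transcript, Igfbpl1 (0.988) and Myl1 (0.983). Dppa5a ran most like Hkdc1 (0.977), Scara3 (0.976) and Sp5 (0.975), the last a target of WNT signalling. Sox2 ran most like Car12, Pxdc1 (both 0.975) and Tmem185a (0.971), and Lin28a most like Tmc7 (0.969), Eola1 (0.968) and Cdc14b (0.967).

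Dnmt3b ran most like Mcm6 (0.976), of the replicative helicase, Mrps23 (0.972), of the mitochondrial ribosome, and Cenpk (0.971), of the centromere. Lin28b ran most like Ccdc18 (0.968), Pter and Idi1 (both 0.962). The nearest genes to Tdgf1 by probe A were Selenov (0.934), Jph3 (0.929) and Rhbg (0.928), to Nanog Mark4 (0.967), Pdcd4 (0.955) and 9930111J21Rik1 (0.951), and to Dppa4 and Utf1 the likeness was looser, with Myzap (0.885), Ptprb (0.873) and Cldn5 (0.859) for the first and Slc38a5 (0.871), Pip4k2c (0.870) and Rusc1 (0.841) for the second. Among the 10 themselves, Pou5f1 and Dppa5a were the closest (r = 0.936), followed by Sox2 and Lin28a (0.925), and Pou5f1 and Nanog ran apart (-0.539). The Sox2 value rests in part on levels not well above background.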

How the data were processed

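RNA of 27 samples was measured on 1-colour Agilent mouse arrays. The deposited spot signal is an intensity that the authors obtained with Feature Extraction (version 10.7.1.1 in the submitters' processing notes, 10.7.3.1 in the file headers), with the background removed by that software and no scaling from array to array. The median spot signal and median local background, used for an alternative, are also deposited as an intensity. The processed values deposited by the authors are log2 values normalized between arrays, with column medians from 5.98 to 6.00; the method is not given in the sources used here, and in all 27 columns the values matched their own array best.

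Of 62976 spots, controls and outliers were left out and the spots of each of 55681 probes were averaged; 26582 probes matched a RefSeq symbol. For each gene the probe with the highest mean over all arrays was kept. Log2 signals had the 75th percentile of the array subtracted. A gene entered a comparison if 1 of its groups, or both, had it well above background on every array. The 13 group means were estimated in limma 3.58.1 by lmFit and eBayes (R 4.3.3, 14 residual and 4.34 prior degrees of freedom) in 17 comparisons, and differences between DOX effects with an F test. Tables used the data.table package (version 1.17.8), pandas 2.3.3 and numpy 2.4.6 (Python 3.11.15), and figures matplotlib 3.10.9. The fit was tested on simulated data. A fold against a group not well above background is a bound set by the dimmest detected probe of each array, or by the level read where higher. Some undetected probes lay above that level, so these bounds are approximate. Tdgf1 probe B on HE1 replicate 2, for example, was undetected at -4.58, against -5.04 for the dimmest detected probe. The adjusted p beside a bound comes from the levels as read. Where part of a group's arrays measured a probe, the difference with the others at the level of their dimmest detected probe is also given. This alternative was added after the data had been seen. The number of arrays limits the precision. No array was a copy of another (0 identical pairs) and no probe was saturated (0 probes).

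The members and gene lists were chosen with earlier results of these data known. Named are the 10 genes, up to 4 called genes of each list, the 3 nearest profiles of each member, and Hprt; markers shown for the SM arrays, and listed genes given without a call, were named after their values were seen. Alternatives covered background correction (normexp, offset 50), scaling, the authors' values, filters, probe choice, slide, scan day, replicate block, weights, thresholds and left-out arrays.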

Additional observations from a re-analysis of the deposited data

How the results depend on the processing

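Counts of the 10 genes called are given here where a setting moved them by over 1.5 times or from 0; an equal count can hold other genes. For HE1 against FLK1+ cells the count was 3; it became 5 with quantile normalization, with a replicate block, with slide as a random block, with array weights, at an adjusted p under 0.10 and without the slide 3 SM arrays, and 6 with median scaling. For HE1 against d1 BC it was 1; it became 2 with quantile normalization, median scaling, the authors' values, a replicate block, scan day as a random block and no slide 3 SM arrays, 3 with slide as a random block or array weights, and 0 where genes had to be detected in both groups or only those groups were fitted. For HE2 against FLK1+ cells it was 4 and became 1 with detection in both groups and 2 with slide as a fixed block or those groups alone. For HP cells it was 5 and became 3 with slide as a fixed block. For SM against FLK1+ cells it was 3 and became 0 with those groups alone and 1 without the slide 3 SM arrays, which gave 1 in place of 0 for SM against d1 BC. For d1 BC against FLK1+ cells it was 2 and became 1 with quantile normalization, no filter or detection in both groups, and 4 with array weights. For d1 BC against 5 h it was 0 and became 1 with normexp, the mean of all probes, array weights or each probe alone, and 2 without the slide 3 SM arrays. For HE2 against HE1 it was 0 and became 1 with quantile normalization, the authors' values, the mean of all probes, slide as a fixed or random block, scan day as a random block, or each probe alone. The test of differing DOX effects, over all genes, passed for 0, for 6 with quantile normalization and for 11 in the authors' values. Except where the construction removes genes or samples, the cause was not tested.

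With 1 array left out, the counts ran from 1 to 5 for HE1, 2 to 4 for HE2, 2 to 5 for HP, 0 to 3 for SM, 0 to 2 for d1 BC, each against FLK1+ cells, from 0 to 1 for HE1 against d1 BC and for the DOX differences (1 without d1 BC DOX replicate 2), and stayed at 0 in the other comparisons. The lowest counts came without either FLK1+ array in HE1, HE2, HP and SM, without HE1 replicate 2 (1 in HE1), either HP array (2 in HP), SM replicate 2 (0 in SM, and 1 without SM replicate 3), d1 BC replicate 2 or FLK1+ replicate 1 (0 in d1 BC), and any d1 BC or HE1 array (0 for HE1 against d1 BC); the count of 5 in HE1 came without SM replicate 2 or either SM DOX array. No direction reversed among called values. The labels do not say that replicate numbers pair the samples, and there were 2 numbers in most groups. Deviations of same-numbered arrays correlated from 0.15 to 0.55 between DOX and untreated arrays in d1 BC, SM, HE1, HE2 and HP, where both arrays lay on 1 slide, at -0.13 at 5 h and from -0.21 to 0.46 in the other comparisons. With a replicate block 0 of the 10 were called in each DOX comparison, as without it. With a replicate block the calls over all genes were 714 for 5 h against FLK1+ cells, 2868 for HE2, 3062 for HP and 377 for d1 BC against 5 h; with crossed numbers they were 733, 2385, 2815 and 359. The F test could not be run with the groups of 1 comparison alone. Dim probes limit Sox2 and the later Pou5f1 and Dppa5a values.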
